A study of Rattus norvegicus with 145 samples.

Results

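Messenger RNA of the cerebral cortex was compared between 24 and 10 months of age in Long Evans rats of either of 2 genotypes, Q130 knock-in heterozygotes (KI) and wild types (WT). The comparison took every cortex library of these ages, 31 of the 145 libraries of the series. At 24 months there were 11 libraries, from 7 KI animals (3 females, 4 males) and 4 WT animals (2 of each sex). At 10 months there were 20, from 5 females and 5 males of each genotype. Each library came from 1 animal, no animal was sampled at both ages, and no drug or other treatment is named in the labels. The rats model Huntington's disease, an inherited disorder in which a CAG repeat of the huntingtin gene is too long. Animals of both ages carry 1 series of identifiers in separate number ranges. Whether their libraries were made together is not given in the sources used here, so age and any batch that went with it cannot be told apart.

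The cortex holds excitatory projection neurons in layers, inhibitory interneurons, astrocytes, oligodendrocytes and their precursors, microglia and vessel cells. In ageing rodent cortex, transcripts of glial activation and of the immune response are known to rise and some neuronal transcripts to fall. Cortical projection neurons send their axons to the striatum, the region that degenerates most in Huntington's disease. The deposited tables carry Ensembl gene identifiers without symbols, and 0 of 32883 identifiers could be paired with a symbol. No gene below is therefore given a name or a role, the huntingtin gene was not looked at by name, and the labelled tissue was not checked against marker genes.

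Total estimated counts per library ran from 30196545 to 37787090, and no 2 libraries were identical. 2 libraries stood apart from those of their own age by rank correlation, the WT female 3 of 10 months and the KI male 4 of 24 months. Both also had the lowest slopes of expression on apparent transcript length. Results that rest on them are given with and without them. In bulk tissue, fewer cells of a type and less RNA per cell cannot be told apart.

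Age went with many small differences in cortex. Of 15693 genes tested with genotype and sex as covariates, 1710 passed edgeR's quasi-likelihood test at an adjusted p under 0.05, which is 10.9%. Of these, 976 rose (6.22% of the genes tested) and 734 fell (4.68%) from 10 to 24 months. The median log2 difference was 0.26 among the risers and -0.14 among the fallers, against -0.0032 over all genes tested. Without the 2 libraries that stood apart, 2318 genes passed, 1238 up and 1080 down. With a pseudocount of 1 on TPM-scale values, limma called 1278 genes, and 79.0% of them rose against 57.1% in the count test. The excess of risers over fallers was thus larger on that scale. With each library's slope on apparent transcript length as a covariate the direction of the excess turned, with 1898 genes up and 2039 down of 3937. The 1710 genes were all among these 3937. Each slope was computed from the same counts that were tested, so this fit is no independent check. The turn was lost under the same covariate when either library that stood apart was left out. There were 1856 up and 1841 down without the WT female 3 of 10 months. Without the KI male 4 of 24 months there were 1986 up and 1826 down.

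Large changes were few and were mostly rises. Of the 1710 genes, 156 differed by at least 1.5-fold, 131 of them up and 25 down. At least 2-fold differences were found for 45 genes, 40 up and 5 down. Most of these had low counts, since 14 of the 45 had a mean log2 CPM of at least 1. The 5 that fell at least 2-fold all had a mean log2 CPM of -0.15 or lower.

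In 20 genes every 24-month library lay above every 10-month library, 0.127% of the genes tested, and in 3 genes every 24-month library lay below, 0.0191%. All 23 passed the test in the fit of both genotypes, which used the same libraries that picked them and so adds no support. The 20 risers ranged from 0.24 to 2.17 in log2 difference with a median of 0.63, and 5 of them rose at least 2-fold. They spanned mean log2 CPM values from -0.058 to 8.96. The 3 fallers ranged from -0.28 to -0.16 and had high counts, with mean log2 CPM from 6.56 to 7.35.

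ENSRNOG00000008816 rose most clearly. Its level at 10 months was 8.57 to 14.1 CPM over the 10 KI libraries (median 11.7) and 10.6 to 13.5 over the 10 WT libraries (median 11.97). At 24 months the 7 KI libraries ran from 20.8 to 29.3 CPM with a median of 26.5. The WT females were at 19.98 and 23.6 CPM and the WT males at 19.1 and 21.5 CPM. Every library of the older animals was thus above every library of the younger ones. The log2 difference was 1.004 ± 0.059 (SE; edgeR adjusted p = 5.58e-13), a 2.01-fold rise. It was 1.14 ± 0.073 in KI and 0.80 ± 0.068 in WT animals, and the difference between the genotypes did not pass the test (0.33 ± 0.11, edgeR adjusted p = 0.433).

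ENSRNOG00000028896 had the next smallest p among the risers that met the conditions for being named. At 10 months its level was 4.95 to 7.45 CPM in KI (median 6.02) and 6.16 to 9.39 CPM in WT libraries (median 6.77). At 24 months it was 10.4 to 18.4 CPM in KI libraries, with a median of 15.1. In WT it was 9.57 and 16.8 CPM in females and 11.7 and 13.2 CPM in males. The ages were narrowly separated, since the lowest 24-month library was at 9.57 CPM and the highest 10-month library at 9.39 CPM. The log2 difference was 1.02 ± 0.093 (SE; edgeR adjusted p = 1.36e-08). Its estimated count was not whole in 45.2% of these libraries, which happens when reads are divided among genes, and its level depends on that division.

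The clearest falls were smaller and in genes of high counts. ENSRNOG00000016872 was at 152 to 170 CPM in KI (median 158) and 153 to 173 CPM in WT libraries (median 160) of 10 months. At 24 months it was at 117 to 139 CPM in KI libraries, with a median of 133. WT females were at 144 and 136 CPM and WT males at 127 and 132 CPM. The 2 ages did not overlap. The log2 difference was -0.28 ± 0.027 (SE; edgeR adjusted p = 3.91e-08), with -0.29 in KI and -0.27 in WT animals.

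ENSRNOG00000009209 was at 91.3 to 114 CPM in KI (median 102) and 93.6 to 110 CPM in WT libraries (median 97.8) of 10 months. At 24 months it was at 77.3 to 86.8 CPM in KI libraries, with a median of 83.9. WT females were at 89.4 and 80.6 CPM and WT males at 86.1 and 88.9 CPM, and again the ages did not overlap. The log2 difference was -0.25 ± 0.029 (SE; edgeR adjusted p = 6.69e-07). In WT animals alone it was -0.19 ± 0.047 and missed the threshold (edgeR adjusted p = 0.0703).

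**Figure D1:**
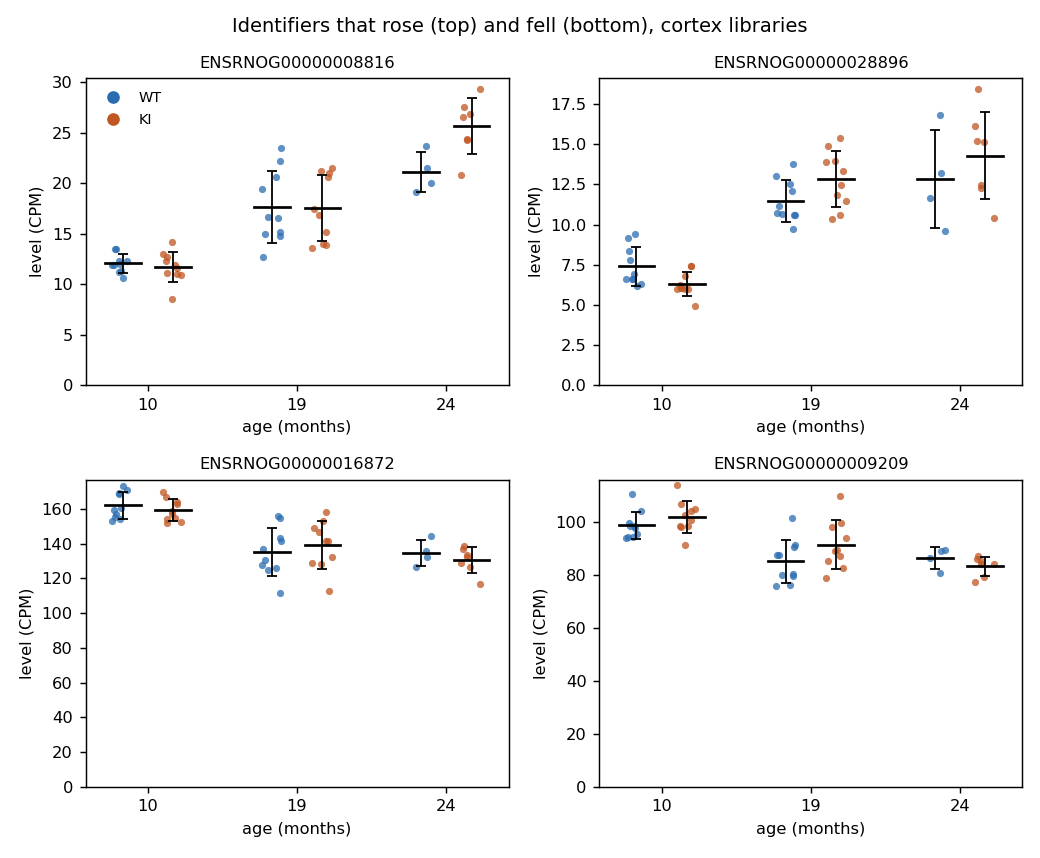
Level in CPM (vertical axis) of the 4 identifiers in each cortex library at 10, 19 and 24 months (horizontal axis), WT in blue and KI in orange; points are libraries, bars the mean and error bars the SD. In all 4 panels the 24-month points lie wholly above or wholly below the 10-month points, as in the upper left panel with 8.57 to 14.1 CPM at 10 months and 19.1 to 29.3 CPM at 24 months.

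The gene with the largest fitted rise was close to 0 in the younger cortex. Its estimated count summed to 1 over the 20 libraries of 10 months and to 191 over the 11 libraries of 24 months (edgeR adjusted p = 1.87e-09). The 4 WT libraries of 24 months held 17 to 28 counts each (0.527 to 0.843 CPM). The 7 KI libraries ran from 0 to 34 counts. Striatum of the same animals gave the same split. In 8 of the 11 animals of 24 months (4 KI and 4 WT, 5 females and 3 males) the gene had 15 to 34 counts in cortex and 12 to 34 counts in striatum. The other 3, all KI males, had at most 1 count in either region, and so had all 20 animals of 10 months. At 19 months no cortex library exceeded 0.0695 CPM. The level at 24 months thus went with the animal, with reads in both regions of 8 animals and at most 1 count a region in 3, and the mean over the group describes neither. Its count was not whole in 22.6% of these libraries. The gene is described after its values were seen and is not one of the named identifiers.

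**Figure D2:**
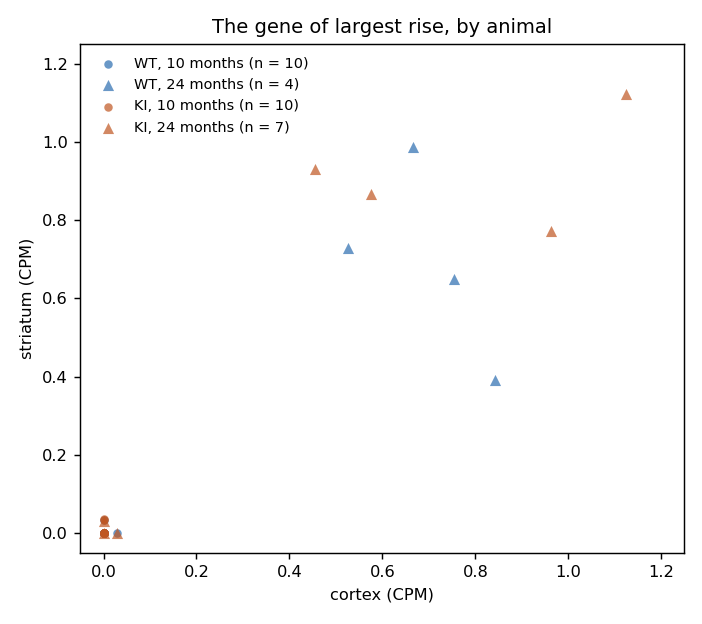
Level in CPM of the gene with the largest fitted rise in cortex (horizontal axis) and striatum (vertical axis) of each animal, with circles for 10 months, triangles for 24 months, WT in blue and KI in orange. The 8 animals at upper right lie between 0.455 and 1.12 CPM in cortex and between 0.392 and 1.12 CPM in striatum, while 3 KI animals of 24 months lie near 0 with all animals of 10 months.

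The largest fitted fall rested on uneven values too. Of the 20 libraries of 10 months, 8 held counts of this gene, summing to 199 with 62 in the highest, and the 11 libraries of 24 months summed to 2 (edgeR adjusted p = 0.0161). The other 12 libraries of 10 months were at 0. Its count was not whole in 58.1% of the libraries. Across all genes, 154 of the 2002 whose counts were not whole in over 50% of libraries passed the test (7.69%), against 1556 of the other 13691 (11.4%).

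The age difference was then fitted in each genotype alone, so that the WT and KI values share no library. In KI animals 917 of 15495 genes passed (5.92%), 664 up (4.29%) and 253 down (1.63%). In WT animals 106 of 15530 passed (0.683%), 65 up and 41 down. The WT fit had 4 animals of 24 months against 7 in the KI fit, and the counts cannot be compared as sizes of effect. The WT count rested on single libraries. It was 284 without the WT female 3 of 10 months, 229 without the WT male 2 of 10 months, and 10 without the WT male 1 of 24 months.

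Genes called in one genotype mostly differed in the same direction in the other. Of the 917 genes called in KI animals, 913 had a value in the WT fit, and 804 of them had the same sign there (88.1%), against 53.6% of all 15401 genes with values in both fits. Of these 913, 54 were also called in WT animals (5.91%), and all 54 in the same direction. The KI risers had a median log2 difference of 0.39 in KI and 0.15 in WT animals, and the KI fallers -0.19 and -0.095. The smaller values in the second genotype are those of genes chosen in the first. In the other direction, 105 of the 106 genes called in WT animals had a value in the KI fit, 99 had the same sign (94.3%) and 54 were called (51.4%).

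**Figure D3:**
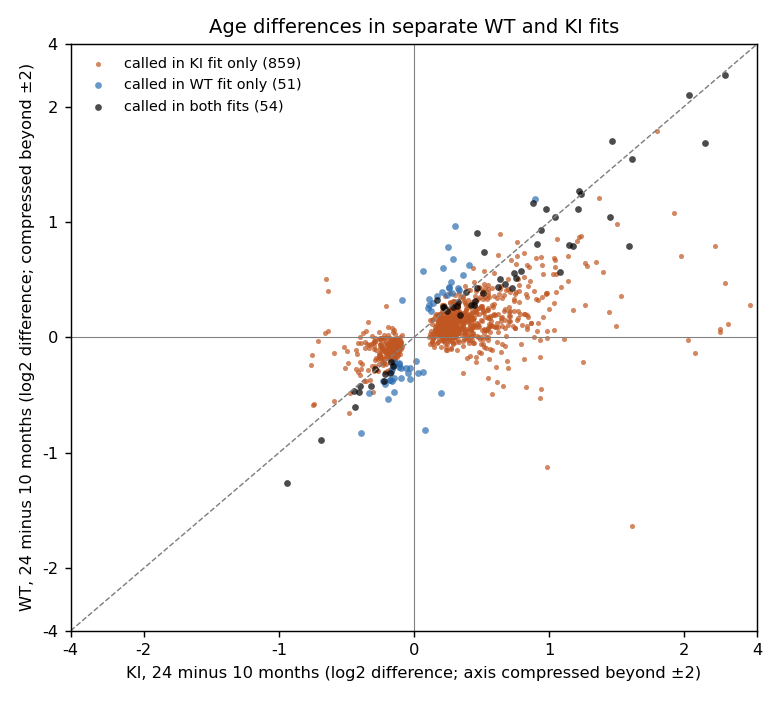
Log2 difference between 24 and 10 months in KI (horizontal axis) and WT animals (vertical axis), from fits that share no library, for the 964 genes called in either and tested in both; black points passed in both fits and the dashed line marks equal values. Of the KI-called genes, 804 of 913 lie on the same side of 0 in WT animals.

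No gene passed the test of the difference between the genotypes' age effects in edgeR. Of 15886 genes, 0 passed (0%), the smallest adjusted p was 0.287, and 1789 genes had an unadjusted p under 0.05. DESeq2 called 7 genes and limma on the TPM-scale values 0, or 2 without a filter on low values. The median age differences of the 2 genotypes had opposite signs along apparent transcript length, but the slopes of single libraries on that length overlapped between the ages. In WT libraries these slopes ran from -0.16 to 0.056 at 10 months and from 0.0057 to 0.038 at 24 months. In KI libraries they ran from -0.082 to 0.051 and from -0.13 to 0.053. In the quartile of shortest transcripts the median log2 difference was -0.062 in WT and 0.031 in KI animals, and in the quartile of longest transcripts it was 0.051 and -0.050. Without the 2 libraries that stood apart these medians were -0.038 and 0.0053, and 0.026 and -0.023. With them left out, 971 genes had an unadjusted p under 0.05 for the difference between genotypes, and with the length slope as a covariate 1071 had one, and 0 passed in either fit.

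The genes called in one genotype were next summarised in each library of the other, as the mean log2 CPM of the risers minus that of the fallers, with the mean of that genotype's 10-month libraries set to 0. For the 664 risers and 253 fallers of KI animals, WT libraries of 10 months ran from -0.14 to 0.27 (median -0.037). WT libraries of 24 months ran from 0.27 to 0.42 (median 0.34). The 2 ages met at their edges, the highest 10-month library at 0.268 and the lowest 24-month library at 0.267. For the 65 risers and 41 fallers of WT animals, KI libraries ran from -0.20 to 0.19 at 10 months and from 0.57 to 1.22 at 24 months, with no overlap. Libraries of 19 months, which entered neither fit, ran from 0.14 to 0.50 in WT and from 0.37 to 0.83 in KI animals. Their medians were 0.34 and 0.48, against 0.34 and 0.83 at 24 months. In WT animals the 19-month and 24-month libraries overlapped throughout.

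**Figure D4:**
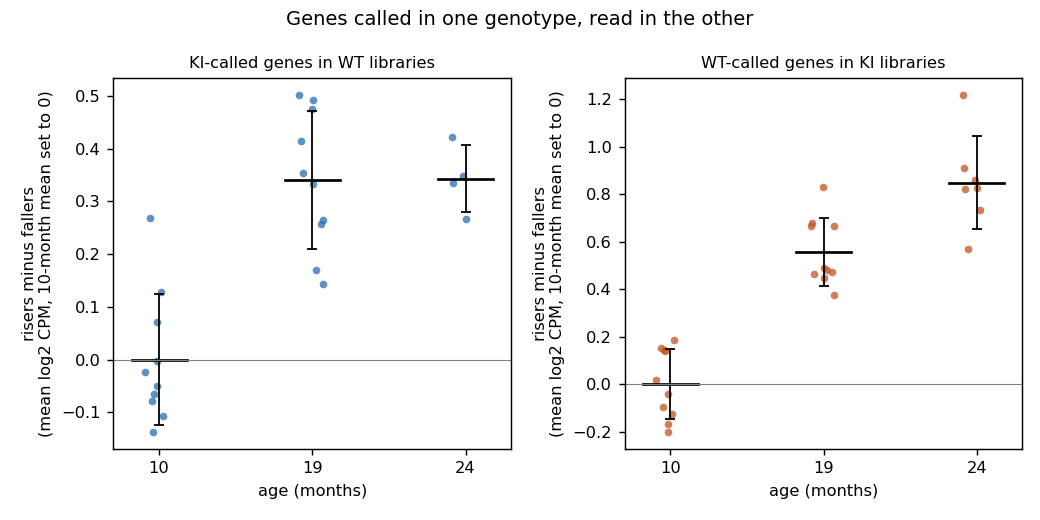
Mean log2 CPM of risers minus fallers (vertical axis, 10-month mean set to 0) by age in months, for genes called in KI animals read in WT libraries (left) and genes called in WT animals read in KI libraries (right); points are libraries, bars the mean and error bars the SD. At right the KI libraries of 24 months, from 0.57 to 1.22, lie above all those of 10 months, which end at 0.19.

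Females and males were likewise fitted apart. In females 743 of 15552 genes passed (4.78%), 512 up (3.29%) and 231 down (1.49%), from 5 animals of 24 months. In males 265 of 15632 passed (1.7%), 165 up (1.06%) and 100 down (0.64%), from 6 animals of 24 months. Each of these fits held a library that stood apart, the WT female 3 of 10 months and the KI male 4 of 24 months. Neither sex was fitted alone without it. Of the 265 genes called in males, 260 had a value in females and 250 had the same sign there (96.2%), against 64.4% of all 15457 genes with values in both. Of the 741 genes called in females with a value in males, 608 had the same sign (82.1%) and 96 were called, all in the same direction. The difference between the sexes' age effects passed for 0 of 15782 genes (0%) in edgeR, with 1262 at an unadjusted p under 0.05 and a smallest adjusted p of 0.106. DESeq2 called 50 genes, and edgeR called 2 without the libraries that stood apart.

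Cortex of 19 months, from 10 WT and 10 KI animals, gave a time between the ages compared. Its animals carry another series of identifiers than those of 10 and 24 months. Age and anything that went with the series cannot be told apart in comparisons with it. From 10 to 19 months 3876 of 15615 genes passed (24.8%), 2088 up (13.4%) and 1788 down (11.5%). From 19 to 24 months 307 of 15739 passed (1.95%), 172 up (1.09%) and 135 down (0.858%). These comparisons share libraries with each other and with that of 24 against 10 months, so their values are set side by side only. The 976 genes that rose from 10 to 24 months had a median log2 difference of 0.20 from 10 to 19 months and 0.059 from 19 to 24 months. From 10 to 19 months, 679 of the 968 with a value were called up (70.1%, beside 13.4% of all genes). The same 10-month libraries had picked these genes. From 19 to 24 months 47 of 976 were called up (4.82%) and 5 down. The 734 that fell had medians of -0.11 and -0.029. Of these, 472 of 732 with a value were called down (64.5%, beside 11.5% of all genes) and 3 up from 10 to 19 months. From 19 to 24 months 24 of 729 were called down (3.29%) and 2 up.

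The named identifiers followed different courses over the 3 ages. ENSRNOG00000008816 was at 12.7 to 23.5 CPM at 19 months, with a median of 16.7, and so overlapped both other ages. Its log2 difference was 0.57 ± 0.069 from 10 to 19 months (edgeR adjusted p = 1.13e-07) and 0.43 ± 0.091 from 19 to 24 months (edgeR adjusted p = 0.00849). ENSRNOG00000028896 was already at 9.72 to 15.4 CPM at 19 months, above all libraries of 10 months. Its log2 difference from 19 to 24 months was 0.16 ± 0.081 (edgeR adjusted p = 0.352). ENSRNOG00000016872 and ENSRNOG00000009209 also passed from 10 to 19 months, with log2 differences of -0.22 and -0.18. From 19 to 24 months theirs were -0.058 and -0.073, with edgeR adjusted p of 0.648 and 0.50.

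Striatum of the same 31 animals was compared in the same way. There 2245 of 15876 genes passed (14.1%), 1185 up and 1060 down. In both regions 461 genes were called, 27.0% of the cortex calls and 20.5% of the striatum calls. Of these, 307 rose in both regions, 90 fell in both and 64 went in opposite directions. The 976 cortex risers had a median log2 difference of 0.24 in striatum, where 967 had a value, and the 734 cortex fallers had one of -0.058, where 720 had a value. Among the 967 risers, 307 were called up (31.7%) and 56 down in striatum, against 7.46% of all striatum genes up. Among the 720 fallers, 90 were called down (12.5%) and 8 up, against 6.68% of all striatum genes down. Cortex and striatum came from the same animals, so these counts are not from independent animals.

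Of the 40 genes that rose at least 2-fold in cortex, 34 had a value in striatum, with a median log2 difference of 1.19, and 24 of them were called up. ENSRNOG00000008816 rose in striatum as well, from 11.3 to 21.9 CPM at 10 months to 23.6 to 68.7 CPM at 24 months (log2 difference 1.503 ± 0.15, edgeR adjusted p = 5.9e-07). ENSRNOG00000009209 had a log2 difference of 0.063 ± 0.11 in striatum (edgeR adjusted p = 0.742), at 19.4 to 44.3 CPM at 10 months and 20.4 to 50.1 CPM at 24 months. ENSRNOG00000028896 missed the threshold in striatum (0.96 ± 0.34, edgeR adjusted p = 0.0579), and so did ENSRNOG00000016872 (-0.22 ± 0.15, edgeR adjusted p = 0.329). For none of the 4 identifiers did the difference between the regions' age effects pass, with edgeR adjusted p from 0.0798 to 0.98.

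The difference between the regions' age effects was tested within animals and passed for 842 of 16874 genes (4.99%). The fit had no term for a genotype or sex effect that differs between the regions. KI animals were 7 of 11 at 24 months and 10 of 20 at 10 months, so such an effect of genotype can enter these calls. The value of cortex minus striatum was above 0 for 536 and below 0 for 306. Of the 837 with a value in both regions' own fits, 462 were up in cortex and down in striatum by sign, 243 were down in cortex and up in striatum, 61 were up in both and 71 down in both. Of the 837, 504 passed in striatum and not in cortex, 126 in cortex and not in striatum, 71 in both and 136 in neither. limma-voom with the animal as a random block called 1052 genes, 805 above 0 and 247 below. Without the 2 animals whose cortex library stood apart, 1167 genes passed, 606 above 0 and 561 below.

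Genes that set cortex apart from the other regions included more fallers than risers. A gene was taken as cortex-enriched if its mean CPM in WT libraries of 19 months was at least 4-fold that in both striatum and cerebellum, so the libraries that chose it are not among those compared. Of 1067 such genes 276 had counts enough to be tested. Of the 276, 35 fell (12.7%, against 4.68% of all genes) and 8 rose (2.9%, against 6.22%), and 185 had a log2 difference below 0. Their median was -0.066, with -0.053 in WT and -0.090 in KI animals. In striatum the same genes had a median of 0.048. The mean log2 CPM of the 276 genes ran from 1.94 to 2.05 in KI libraries of 10 months and from 1.88 to 1.97 in those of 24 months. In WT libraries it ran from 1.87 to 2.06 and from 1.95 to 2.00. The group means were 2.00 ± 0.042 (SD, n = 10) and 1.92 ± 0.031 (SD, n = 7) in KI animals, and 1.98 ± 0.056 (SD, n = 10) and 1.96 ± 0.024 (SD, n = 4) in WT animals. The ranges of the 2 ages overlapped in both genotypes.

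Striatum-enriched genes, chosen likewise, had 6 of 232 tested genes up (2.59%, against 6.22% of all genes) and 15 down (6.47%, against 4.68%) in cortex, with a median log2 difference of -0.017. With a bound of 2-fold in place of 4-fold the median was 0.012, so the sign of their median depended on the bound. In striatum itself the median of the 232 genes was -0.25. Cerebellum-enriched genes had 17 of 265 up (6.42%, close to the 6.22% of all genes) and 8 down (3.02%, against 4.68%), with a median of 0.041. For each region-enriched group the median at 2-fold differed from that at 4-fold by no more than the SD between libraries of the group's mean log2 CPM. No set test was made of these groups.

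The cerebellum of 19-month animals gave genes that differ between KI and WT, from libraries not used here. In that region 352 of 15341 genes passed (2.29%), 156 higher and 196 lower in KI. Of the 156, 148 were tested for age in cortex, where 13 rose (8.78%, against 6.22% of all genes) and 21 fell (14.2%, against 4.68%), with a median log2 difference of -0.038. Of the 196, 190 were tested, where 21 rose (11.1%) and 13 fell (6.84%), with a median of 0.017. In both sets the shares called in either direction were thus above those of all genes. Both sets had been chosen by passing a test in cerebellum, and shares called in cortex varied with mean CPM and spread. Whether this bears on the shares was not tested. Without the 2 libraries that stood apart the first set had 16 up and 28 down and the second 25 up and 20 down, and with the length slope as a covariate 20 and 45, and 29 and 27. The medians were -0.039 and 0.026 in WT cortex and -0.027 and 0.0094 in KI cortex.

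Among genes of low counts risers outnumbered fallers, and among genes of high counts fallers outnumbered risers. In the quartile of genes with the lowest mean CPM, 228 of 3924 rose and 80 fell (5.81% and 2.04%), with a median log2 difference of 0.046. In the quartile with the highest, 179 of 3923 rose and 368 fell (4.56% and 9.38%), with a median of -0.027. The 2 quartiles between had 310 up and 111 down, and 259 up and 175 down. Along apparent transcript length, risers and fallers numbered 178 and 67 in the shortest quartile and 249 and 299 in the longest. Without the 2 libraries that stood apart these counts were 219 and 173, and 339 and 334, so the excess of fallers in the longest quartile was lost. With the length slope as a covariate they were 354 and 462 in the shortest, where the excess turned to fallers, and 546 and 589 in the longest. Genes were also split by their spread within the 10-month libraries, which are among those compared. In the quartile with the smallest spread 186 rose (4.74%) and 469 fell (12%), with a median log2 difference of -0.026. In the quartile with the largest 212 rose (5.4%) and 48 fell (1.22%), with a median of 0.051. That median was 0.15 in WT and -0.018 in KI animals, and 0.11 and 0.018 without the 2 libraries that stood apart. The test needs a smaller difference where the spread between animals is smaller. Whether this bears on the counts was not tested.

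**Figure D5:**
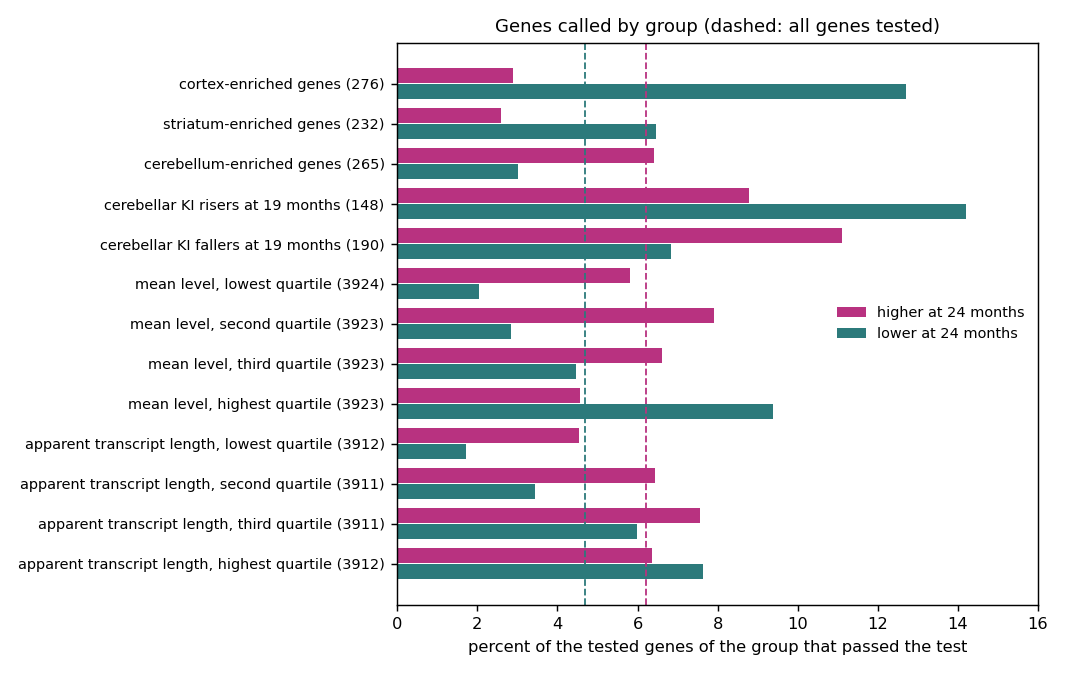
Percent of tested genes called higher (magenta) or lower (teal) at 24 months, by gene group with the number tested in brackets; dashed lines mark all genes tested, at 6.22% and 4.68%. The 276 cortex-enriched genes had 12.7% lower and 2.9% higher, and calls of lower level grew from 2.04% in the quartile of lowest mean CPM to 9.38% in the highest.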

How the data were processed

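Libraries were assigned to genotype, age, region and sex from the labels. Per the labels' protocols, total RNA from frozen tissue was purified with a Qiagen kit, and Illumina libraries were made from enriched RNA. The deposited count table holds estimated counts (7.79% of values are not whole at a tolerance of 1e-06), which were rounded here. The authors call the other deposited table FPKM, but every library in it has the same total, as on the TPM scale, and it was treated as TPM. Per the file headers the reference is Rat.B6.0. The sources used here do not give the aligner, counter or annotation.

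Each comparison was fitted with edgeR 4.0.16 in R 4.3.3 (TMM, filterByExpr, robust quasi-likelihood F test), with genotype and sex as covariates where both were present, and a gene was called where its Benjamini-Hochberg adjusted p was under 0.05. The region test had the animal as a block, with region and region by age as its other terms. The p-values rest on the spread between separate animals. CPM values use TMM factors over all cortex libraries. Apparent transcript length is the ratio of the 2 tables, and was tested with limma 3.58.1. A library's length slope is that of its log2 CPM, less each gene's mean, on log2 apparent transcript length. It comes from the same counts as the fits that use it. A library stood apart where its mean Spearman correlation with its age lay over 5 scaled median absolute deviations below the median. The edgeR and DESeq2 fits of both genotypes were also run on simulated data, with levels and spread taken from the main fit. The length test was run on simulated ratios. The other fits were not run on simulated data.

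Named identifiers are the first 2 by p in each direction among called genes whose sign was shared by WT, KI, females and males and whose mean log2 CPM reached 1, 1520 genes. The design assumed symbols, so 29 gene lists written as symbols, which include the cell type markers, were not tested. The comparison, groups and lists were chosen with earlier results of these data known. Alternatives were RLE factors, DESeq2 1.42.0, other filters and covariates, limma on the TPM scale, a replicate block and leaving out each library. Fits without the 2 libraries that stood apart, without genes of shared reads, of the length slope without 1 library, of the region-enriched groups with a minimum of 1 CPM or with the length slope, and the counts over the largest changes were added after seeing the data.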

Additional observations from a re-analysis of the deposited data

Results flagged for a closer look

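The KI male 4 of 24 months had a mean Spearman correlation of 0.98 with the other cortex libraries of its age, and the nearest of its group was at 0.9908. The WT female 3 of 10 months was at 0.9785, with the nearest of its group at 0.9902. Each was flagged because its gap to the nearest of its group was large against the group's range. Of 32 groups of values tested in this way 2 were flagged, where chance flags about 1 in 20. Their slopes of expression on apparent transcript length, -0.13 and -0.16, were the lowest of the 31 libraries, and their part in the age differences is given as counts without them.

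The difference between the regions' age effects, which passed in edgeR for 842 genes, was flagged because the same contrast differed between cortex and striatum by a test of the difference itself.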

How the results depend on the processing

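The count of 1710 genes stayed within 1.5 times under RLE factors, DESeq2, other filters, limma, no sex or genotype term, 1 spread over 3 ages and without genes of shared reads. It moved to 3937 with the length slope as a covariate. That was 3697 without the WT female 3 of 10 months and 3812 without the KI male 4 of 24 months. The count also moved to 1107 with the replicate block, and to 743 in females and 265 in males, each a part of the samples. Leaving out each library gave 1353 to 2058. In WT animals DESeq2 gave 542 (225 up, 317 down), the length slope 547, limma 40, 25 and 37, and the fit without the libraries that stood apart 284, against 106. Leaving out each library gave 10 to 284, and 12 of 14 counts lay outside 1.5 times. In KI animals the length slope gave 1703 and limma 517, 518 and 493 (439, 437 and 423 up), against 917 (664 up), and leaving out each library 638 to 1143. Age by genotype gave 0 in edgeR, 7 in DESeq2, 2 in limma without a filter, and 0 to 1 on leaving out each library. Age by sex gave 0, 50 in DESeq2 and 2 without the libraries that stood apart. The length test gave 6, 16 among genes of at least 10 on the TPM scale, and 9817 with the length slope. The cause was not tested for any of these, and males gave the lower count with more animals of 24 months than females. limma on the TPM scale called 79.0%, 78.2% and 79.5% of 1278, 1252 and 1140 genes up, against 57.1%. The log2 differences of the 4 identifiers kept direction and threshold in all 196 alternative values, counted over the 4 together. The 4 were chosen by p in the main fit and by a sign shared by females and males. Direction in the fits of 1 sex was thus set by the choice, and the other alternatives reuse the same libraries. Depth limits genes of few counts most: the largest fall rests on 199 counts over 20 libraries against 2 over 11.

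Replicate numbers did not pair the samples: over 11 pairs of one sex and genotype the correlation of deviations ran from -0.31 to 0.12, and 1 was over 0.1. With the replicate block 1107 genes passed, 1007 of them among the 1710. In KI animals 135 passed, 131 of them among the 917 called without it. In WT animals 111 passed, but only 35 of them were among the 106 called without it.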

Other observations

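Spread between animals was similar at both ages. The median over genes of the SD of log2 CPM within an age was 0.164 at 10 and 0.167 at 24 months, and 53.3% of 15693 genes had the larger SD at 24 months. Without the 2 libraries that stood apart the medians were 0.145 and 0.133, and 39.6% had the larger SD at 24 months, so the direction rested on those libraries.

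The ratio of the 2 deposited tables gives an apparent transcript length of each gene in each library, which moves when the mix of isoforms counted does. Of 12729 genes, 6 passed limma's test between the ages (0.0471%), 4 longer and 2 shorter at 24 months, by 0.519% to 6.47%. None of the 6 was called for its level, and 323 of 12729 had an unadjusted p under 0.05. For 10172 genes the SD of the log2 ratio over libraries was at most 0.005, so the ratio hardly varied.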
